A study of Panicum virgatum with 54 samples.

Results

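Switchgrass leaves under drought that had also had 48 h of heat were set against leaves under drought alone, both sampled at 120 h of the experiment. The rule takes the 3 drought-and-heat libraries at 120 h and the 3 drought libraries at 120 h, 6 of the 54 libraries of the series, and all genes. The drought-and-heat plants are called combined plants below. Plants of every group were ramets of a single genotype, AP13, selected from the lowland cultivar Alamo of Panicum virgatum, at the stage labelled E3, and leaf RNA was sequenced. Combined plants are labelled drought and heat and, by their sample titles, had 0 h of heat at 72 h, 24 h at 96 h and 48 h at 120 h. Drought plants are labelled drought, and control plants, which give the untreated level here, are labelled untreated. Control and drought plants stood in 1 growth chamber and combined plants in another, so heat and chamber cannot be told apart in any comparison of combined with drought plants at 120 h. The sources used here give neither the temperatures nor the way water was withheld. Whether replicates are separate plants is not stated in the labels. The p-values therefore reflect only how far these libraries scatter, and part of that scatter may be technical. A lower level in a whole leaf can come from fewer cells of a type or from less RNA per cell, and these cannot be told apart.

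Switchgrass is a perennial C4 grass, whose leaves fix carbon in mesophyll cells and release it again in bundle sheath cells around the veins. Drying leaves close their stomata under the control of abscisic acid, which saves water and also lowers the cooling of the leaf by transpiration, so heat that follows drought meets a leaf with less capacity to cool itself. Plant cells answer heat through heat shock factors, which switch on genes for chaperones that keep proteins folded. Whether those families moved here could not be read from the table. It holds 32190 identifiers of the Pavir v4.1 form and the files do not pair them with gene names, and 0 of them matched any of 74976 genes listed by RefSeq for assembly P.virgatum_v5. The lists of heat shock, abscisic acid, photosynthesis and antioxidant genes were therefore not evaluated, the leaf label was not checked against markers, and no sequence is shown. Genes are given by identifier, with the chromosome coded in it (K and N are the 2 subgenomes of this polyploid). The counting may split reads between near-identical copies on K and N and between overlapping genes, so the value of a single copy is uncertain.

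The 6 libraries held 22.3 to 38.9 M counts. They differed from each other along an axis that is not the treatment. In a set of 405 genes found among the 9 libraries at 0 h without use of their labels, 12 of the 54 libraries, none of them a control, had next to no counts. These 12 are called second-profile libraries, and 38 others first-profile libraries. At 120 h, the median level of the 405 genes relative to that in the 7 libraries at 0 h that carried these genes was 1.02, 0.00556 and 1.17 in combined replicates 1, 2 and 3, and 0.00631, 0.00534 and 1.16 in drought replicates 1, 2 and 3. Combined replicate 2 and drought replicates 1 and 2 thus have the second profile. Of the 405 genes, 0 were called higher and 0 lower at 120 h, where 1.28% and 0.678% of all genes tested were. Their median log2 fold change was 1.02, and 389 of them were positive. Combined replicates 1 and 3 but only drought replicate 3 carried these genes, so a change with treatment cannot be told apart here from the mix of profiles.

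The first principal component of the 6 libraries, with 52.4% of their variance, separated the profiles, with the second-profile libraries at 70.9 or above and the first-profile ones at -102.1 to -95.2. The second component, with 22.4%, separated the treatments. Combined libraries lay at 64.1, 92.0 and 20.9 and drought libraries at -78.2, -26.3 and -72.5 (replicates 1, 2 and 3 each). Both treatments had libraries of both profiles.

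**Figure D1:**
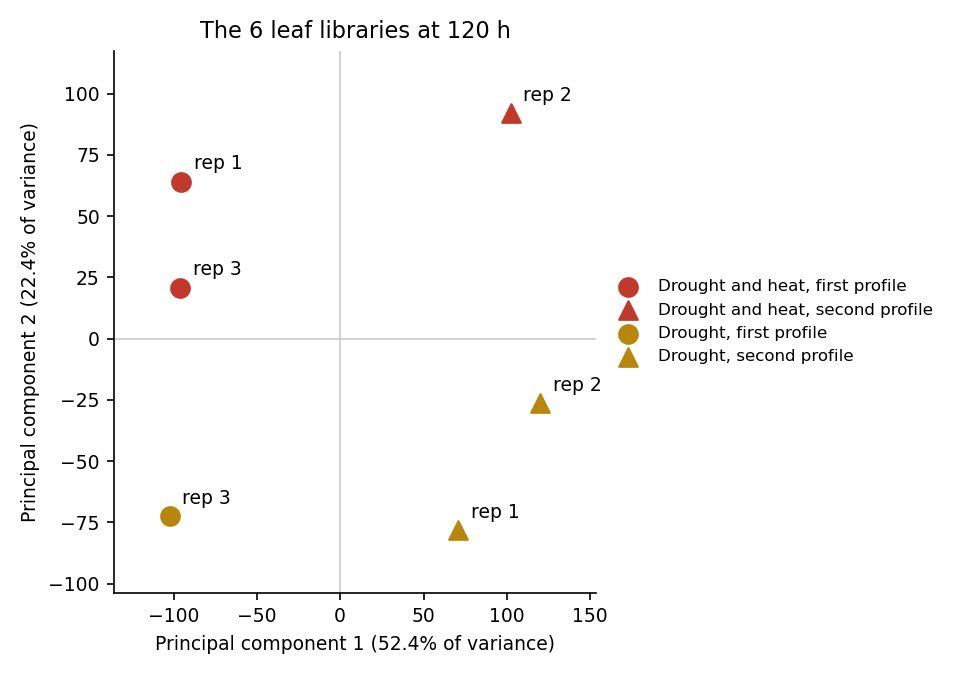
Principal components 1 and 2 of the 6 libraries at 120 h (log2 CPM, genes centred), with each point a library, colour for treatment and triangles for second-profile libraries. The horizontal axis (52.4% of variance) parts the profiles, and on the vertical axis (22.4%) the 3 drought-and-heat libraries lie at 20.9 or above and the 3 drought libraries at -26.3 or below.

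With 48 h of heat, combined leaves had 411 genes above and 217 below their level in drought leaves at an edgeR adjusted p below 0.05, which is 1.96% of the 32011 genes tested (1.28% higher and 0.678% lower). The higher genes had a median log2 fold change of 1.33 (quartiles 1.05 and 1.76), and 317 of the 411 changed at least 2-fold, 73 at least 4-fold and 21 at least 8-fold. The lower genes moved by less, with a median of -1.0 (quartiles -1.43 and -0.75), and 110 of the 217 changed at least 2-fold. Over all genes tested the median was 0.02 and the quartiles were -0.33 and 0.41. These medians describe genes chosen for passing the test in these same libraries. Called genes were more abundant than the typical gene: the mean level over the 6 libraries had a median of 16.0 CPM among the higher, 23.2 CPM among the lower and 10.9 CPM among all genes tested, where CPM is the read count of a gene scaled to a common library size.

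The 411 higher genes held 2.05%, 1.84% and 1.21% of all counts in combined replicates 1, 2 and 3, against 0.618%, 0.673% and 0.704% in the drought replicates. The 217 lower genes held 0.528%, 0.502% and 0.600% in the combined replicates, against 1.20%, 1.12% and 1.20% in the drought replicates. The groups did not overlap in either sum. Gene by gene, 398 of the 411 higher and 211 of the 217 lower genes had no overlap between the 3 combined and the 3 drought libraries. Over all genes tested, 11.1% lay entirely higher and 9.23% entirely lower. The listed genes were called on these same libraries. The separation of the sums and of single genes thus follows largely from that choice and is no separate evidence.

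**Figure D2:**
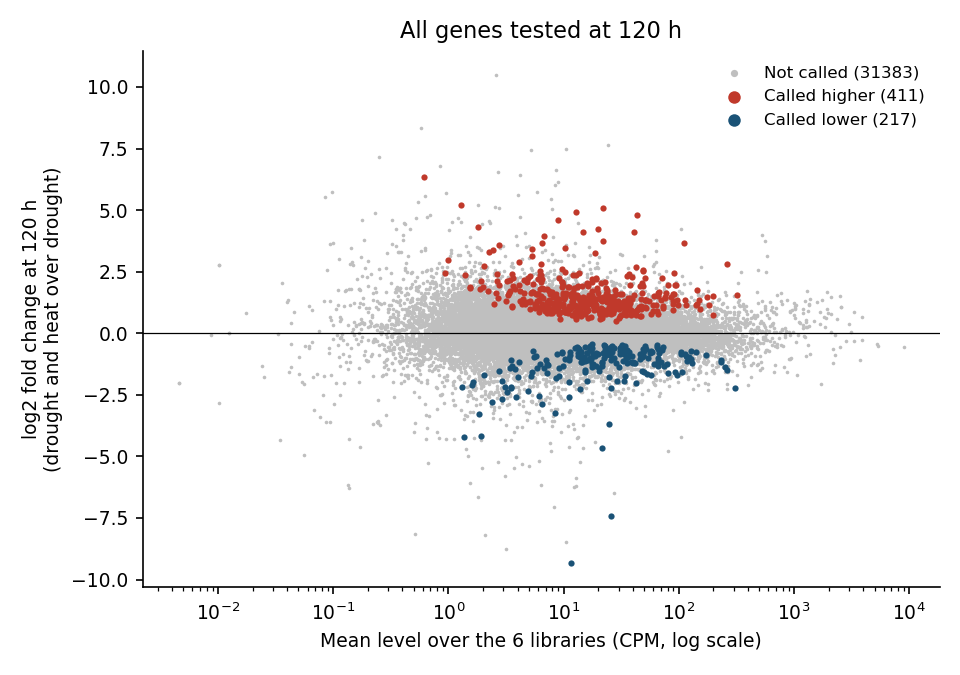
Each point is a gene tested at 120 h, placed by its mean level over the 6 libraries (CPM, log scale) and its log2 fold change, drought and heat over drought. The 411 genes called higher are red and the 217 called lower are blue, and many uncalled genes have folds as large.

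The number of calls rested on single libraries. Without combined replicate 1, 2 or 3, edgeR called 1, 1 and 909 genes, and without drought replicate 1, 2 or 3 it called 0, 35 and 53, and these 6 fits had 3993 to 6293 genes at an unadjusted p below 0.05, against 5784 in the fit of all libraries. Adding each library's profile level to the model, edgeR called 871 genes (578 higher and 293 lower), among them 398 of the 411 and 199 of the 217.

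Pavir.7KG175400.v4.1 (chromosome 7K) was among the strongest risers. Its level was 34.4, 34.5 and 14.3 CPM in combined replicates 1, 2 and 3, against 1.49, 1.48 and 1.79 CPM in the drought replicates. Every combined library lay far above every drought library, and the means were 27.7 ± 11.6 CPM in combined and 1.59 ± 0.175 CPM in drought leaves (SD, n = 3 each). The genes named here were chosen for large folds without overlap between these groups, so their separation is no separate evidence. The log2 fold change was 4.12 ± 0.86 (SE), with an edgeR adjusted p of 0.0218. Control leaves at 120 h stood at 2.75 ± 0.833 CPM (SD, n = 3), below every combined and above every drought library. Against these controls, the log2 fold change was 3.34 ± 0.83 in combined leaves (edgeR adjusted p = 0.0115) and -0.79 ± 0.78 in drought leaves (edgeR adjusted p = 0.502). These comparisons share libraries with each other.

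The same gene was also high in part of the combined libraries labelled with 0 h of heat. At 72 h its levels were 1.02, 12.5 and 27.8 CPM in combined replicates 1, 2 and 3, against 1.81, 1.01 and 0.817 CPM in the drought replicates, with a log2 difference of 3.49 ± 0.84 (edgeR adjusted p = 0.0214). Its 0 h mean was 2.57 ± 1.88 CPM for combined and 2.20 ± 1.27 CPM for drought leaves (SD, n = 3 each), a difference within the spread of the libraries. Combined libraries ranged from 20.4 to 42.3 CPM at 96 h, from 7.03 to 14.9 CPM at 144 h and from 10.9 to 13.8 CPM at 168 h. The highest drought library at any of those times had 4.39 CPM. The 72 h label of the highest of these, replicate 3, could not be checked, and the list levels of that library given below are those of heated libraries. The change of the log2 difference between 72 and 120 h was 0.63 ± 1.09 (edgeR adjusted p = 0.910).

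Pavir.6KG254300.v4.1 (6K) had the largest fold among the eligible risers, from less even libraries. It stood at 32.4, 15.8 and 3.02 CPM in combined replicates 1, 2 and 3, against 0.221, 0.698 and 1.19 CPM in the drought replicates. Combined replicate 3 was close to the drought range and the others were well above it. The means were 17.1 ± 14.7 and 0.704 ± 0.486 CPM in combined and drought leaves (SD, n = 3 each), with a log2 fold change of 4.60 ± 1.17 and an edgeR adjusted p of 0.0370. Controls at 120 h, at 6.97, 2.20 and 3.07 CPM, were above every drought library and overlapped the combined range at its lower end. At 72 h, combined replicate 3 alone was high, at 44.6 CPM, with replicates 1 and 2 at 0.224 and 1.73 CPM and the drought libraries at 1.73 to 2.20 CPM. All 3 combined libraries were high at 96 h (12.8 to 44.7 CPM), against 0.521 to 2.21 CPM in drought libraries. At 144 and 168 h combined libraries lay between 0.876 and 7.48 CPM, and the difference did not pass the test at either time (edgeR adjusted p 0.586 and 0.587).

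Both falling genes with the largest folds were higher in drought than in control leaves at 120 h (edgeR adjusted p 0.0171 and 0.0164), in a comparison that shares the drought libraries. Pavir.5KG546100.v4.1 (5K) stood at 0.393, 0.0364 and 0.455 CPM in combined replicates 1, 2 and 3, against 73.0, 2.97 and 77.5 CPM in the drought replicates. Combined leaves overlapped the control leaves of that time (0.0667 to 0.446 CPM), and drought replicate 2 was far below the other drought libraries. Its log2 fold change was -7.41 ± 1.99, with an edgeR adjusted p of 0.0432. The groups did not overlap at 0 h either, with combined libraries at 0.0663 to 0.124 CPM (2 to 4 counts) and drought libraries at 0.268 to 0.891 CPM (8 to 24 counts). That log2 difference was -2.45 ± 2.14 (edgeR adjusted p = 0.739). Combined libraries were at 0.0933 to 0.583 CPM at 72 h, against 0.717 to 28.7 CPM in drought libraries. The change of the log2 difference between 72 and 120 h was -2.08 ± 2.35 (edgeR adjusted p = 0.851). At 96 h combined libraries were at 0.0277 to 3.75 CPM, against 0.733 to 60.2 CPM in drought libraries. At 168 h, in contrast, combined libraries stood at 77.0, 21.7 and 8.77 CPM and drought libraries at 47.6, 0.538 and 88.6 CPM, and the groups overlapped (log2 difference -0.35 ± 1.44, edgeR adjusted p = 0.914).

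Pavir.3KG285800.v4.1 (3K) followed the same course from 72 h on, while at 0 h its groups overlapped. At 72 h its combined libraries were at 0.0201 to 0.210 CPM, against 0.632 to 6.90 CPM in drought libraries. The change of its log2 difference between 72 and 120 h was -3.78 ± 3.28 (edgeR adjusted p = 0.800). This gene had 1 count in each combined library at 120 h (0.0246 to 0.0413 CPM), against 1201, 2 and 1109 counts in drought replicates 1, 2 and 3 (33.2, 0.0872 and 36.8 CPM). Drought replicate 2 was at the level of the combined libraries, so the fall rests on drought replicates 1 and 3. The summed counts, 3 in combined and 2312 in drought leaves, give a level 798 times higher in drought leaves, with an exact 95% interval of 273 to 3873 that covers counting error only. The edgeR adjusted p was 0.0432. By 168 h the combined libraries had reached 70.6, 18.1 and 1.27 CPM, against 34.8, 0.0468 and 102.2 CPM in the drought libraries. Its level was thus high in 2 of 3 libraries of both treatments by then. An untreated library, control replicate 2 at 144 h, also carried both falling genes, at 19.4 CPM for Pavir.3KG285800.v4.1 and 63.2 CPM for Pavir.5KG546100.v4.1.

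**Figure D3:**
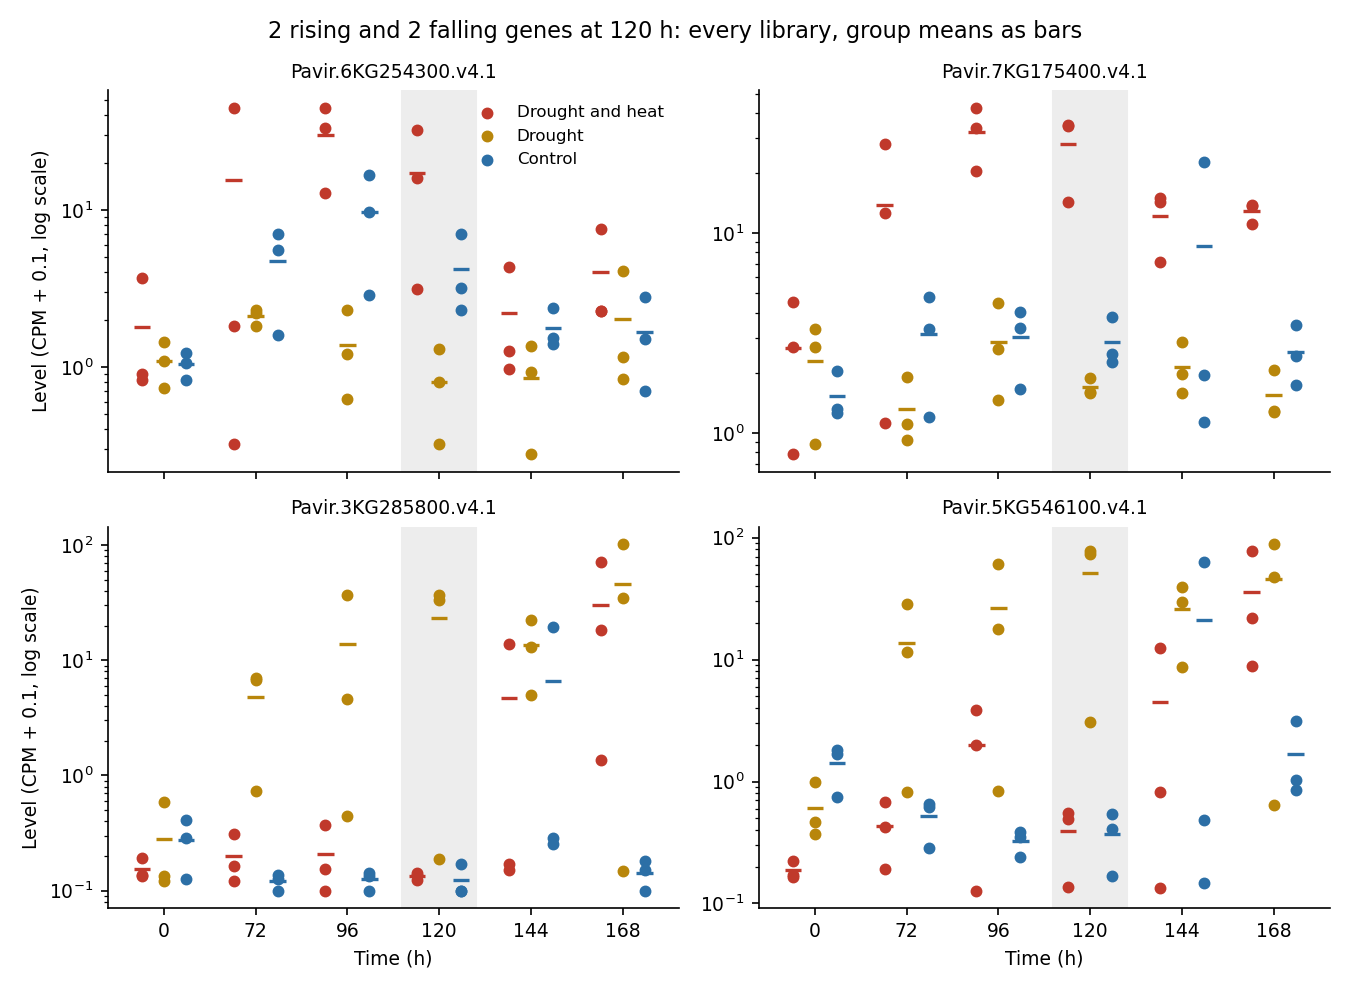
Level of the 4 named genes in every library (CPM with 0.1 added, log scale) at each of the 6 times, with drought and heat left, drought in the middle and control right, and short bars at group means. In the shaded 120 h columns the rising genes are at 3.02 CPM or more in drought-and-heat leaves and at 1.79 CPM or less in drought leaves, and the falling genes are at 0.455 CPM or less in drought-and-heat leaves.

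The 411 and 217 genes were next followed as groups through every library, as their median log2 level relative to control leaves at 0 h. For the higher genes at 120 h this was 1.66, 1.54 and 1.06 in combined replicates 1, 2 and 3, against 0.00077, 0.21 and 0.10 in the drought replicates. Control leaves at 120 h lay between, at 0.51 to 0.81. For the lower genes it was -0.59, -0.64 and -0.51 in the combined replicates, against 0.36, 0.35 and 0.27 in the drought replicates, with controls again between at -0.20 to -0.10. In both lists combined and drought leaves thus stood on opposite sides of the untreated leaves of the same time, with no overlap among the 3 groups. The combined and drought values at 120 h chose the lists, and the control values entered that choice only through the estimate of spread shared by all 54 libraries. Choosing genes for a gap between combined and drought leaves tends by itself to leave the controls in between. Their position is therefore no separate evidence that the treatments moved these genes in opposite directions from untreated leaves, which was not tested for the lists.

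Combined replicate 3 was the weakest of its group in the higher list: it had the lowest of the 3 combined levels in 308 of the 411 genes. In the lower list the lowest level was in replicate 2 for 103 of the 217 genes and in replicate 3 for 52. Within the first profile (combined replicates 1 and 3 against drought replicate 3) the median log2 difference was 1.31 for the higher and -0.87 for the lower genes. Within the second profile (combined replicate 2 against drought replicates 1 and 2) it was 1.39 and -1.08. Each of these differences has 1 library on 1 side, so only its size is given. The genes were chosen in these same libraries, so their signs within each profile are no separate evidence.

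**Figure D4:**
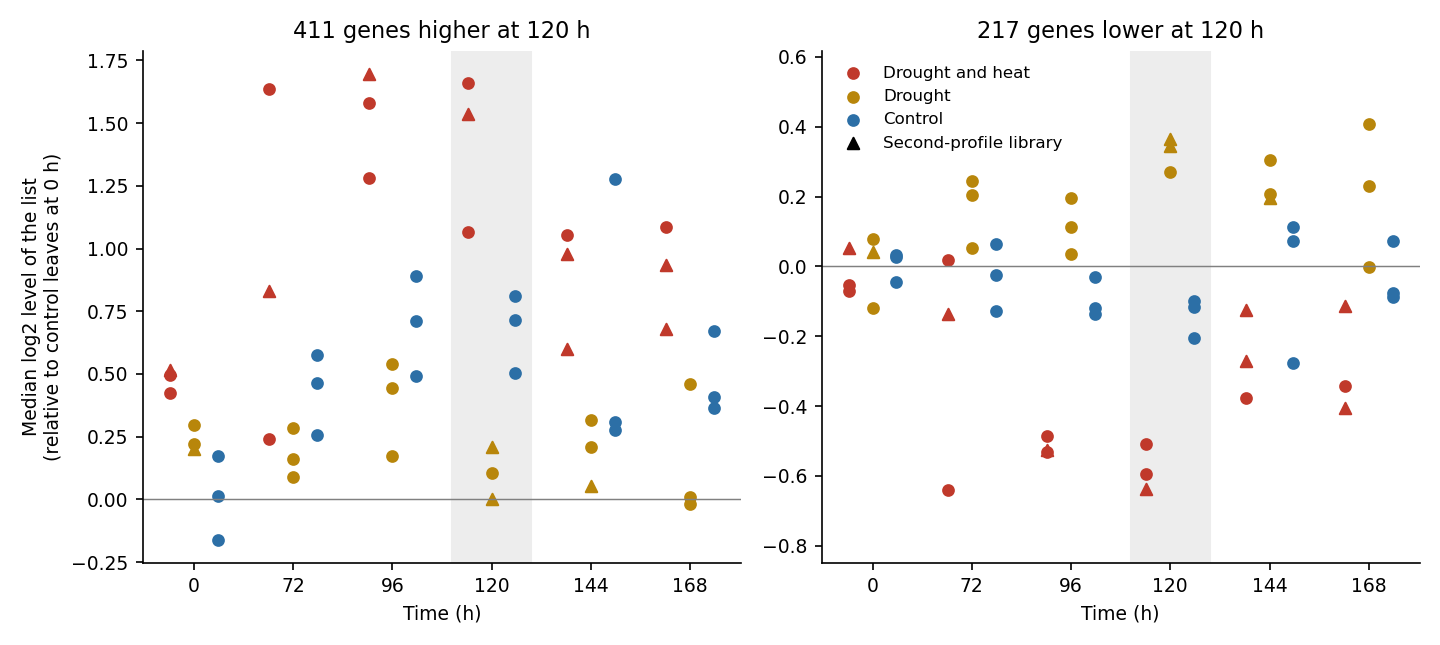
Median log2 level of the 411 genes higher (left) and the 217 genes lower (right) at 120 h, relative to control leaves at 0 h, in all 54 libraries by time, with drought and heat left, drought in the middle and control right, and triangles for second-profile libraries. At 120 h (shaded) drought-and-heat libraries reach 1.06 to 1.66 in the left panel, and at 72 h they spread from 0.24 to 1.64.

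Libraries of other times did not enter the fold changes at 120 h, but they did enter the estimate of spread behind the calls, since the model was fitted to all 54 libraries. Their median differences had the same sign in both lists and were smaller. At 96 h, after 24 h of heat, the median log2 difference between combined and drought leaves was 1.15 for the higher list and -0.66 for the lower list, and 409 of 411 and 214 of 217 genes had the same sign. Of the 411, 257 (62.5%) were also called higher at 96 h, where 3.66% of all genes tested were, and of the 217, 77 (35.5%) were also called lower, where 2.11% of all genes were. At 144 h the medians were 0.65 and -0.47, with 27 and 11 genes called in the same direction (0.725% and 0.162% of all genes). At 168 h they were 0.76 and -0.55, with 90 and 42 called (1.08% and 1.21% of all genes). These counts rested on single libraries: leaving out 1 library of the time gave 0 to 227 and 0 to 59 genes at 96 h (0 and 0 without drought replicate 3, 10 and 2 without combined replicate 2), 5 to 33 and 1 to 12 at 144 h, and 1 to 46 and 0 to 33 at 168 h (1 and 0 without combined replicate 1). The shares of all genes called in those fits moved too, from 0% to 3.83% higher and 0% to 2.1% lower at 96 h. They were 0.106% to 0.818% and 0.0156% to 0.247% at 144 h, and 0.00312% to 0.822% and 0.00312% to 1.54% at 168 h. The medians of the lists moved less, between 1.05 and 1.17 and between -0.71 and -0.60 at 96 h. Their range was wider at 144 h (0.57 to 0.755 and -0.58 to -0.39) and at 168 h (0.68 to 0.96 and -0.70 to -0.42). No gene of either list was called in the opposite direction at 72, 96, 144 or 168 h. The mix of profiles differs between these times: second-profile libraries make up 1 of 3 combined and 2 of 3 drought libraries at 120 h, and 1 of 3 and 0 of 3 at 96 h.

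**Figure D5:**
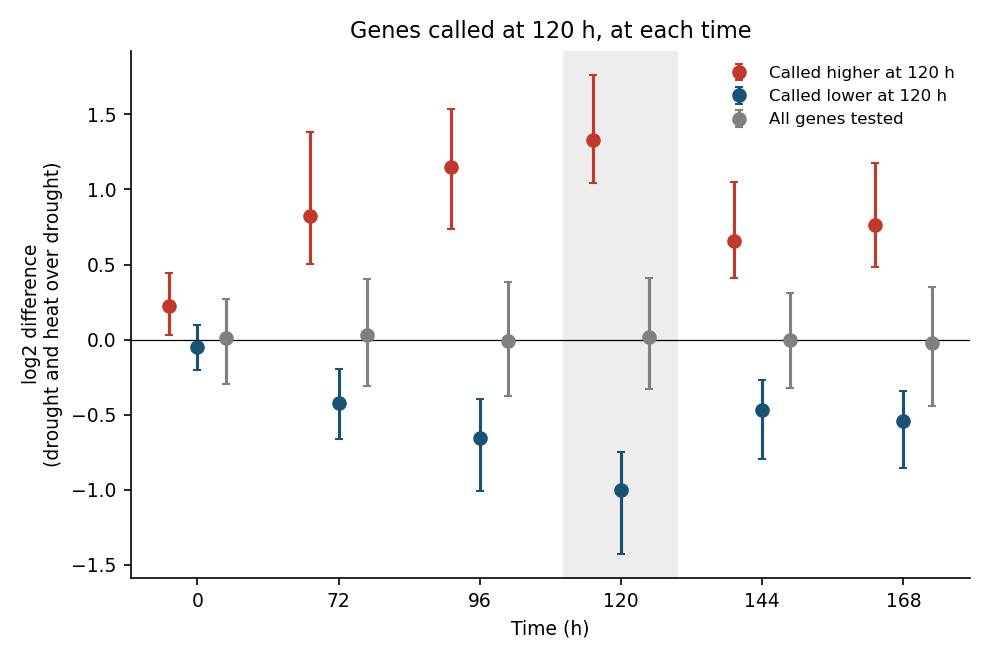
Median log2 difference, drought and heat over drought, with quartiles as bars, at each time for the genes called higher (red) or lower (blue) at 120 h and for all genes tested (grey). The 120 h values (shaded) chose the lists; the higher list has medians of 0.82, 1.15, 0.65 and 0.76 at 72, 96, 144 and 168 h, while all genes tested stay within 0.03 of 0.

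Part of the difference was also found in libraries labelled with 0 h of heat. It was largest in 1 library, combined replicate 3 at 72 h, without which 0 genes of either list were called at that time. At 72 h the median log2 difference was 0.82 for the higher list and -0.42 for the lower list, 390 of 411 and 197 of 217 genes had the same sign, and 128 and 12 genes were called in the same direction, where 1.86% and 0.69% of all genes were called. At 0 h the medians were 0.22 and -0.05, with 321 of 411 and 127 of 217 genes of the same sign. At that time edgeR called 0 genes among all tested, 3753 had an unadjusted p below 0.05, limma voom called 0, and DESeq2 called 120 higher and 328 lower.

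The 3 combined libraries at 72 h were unlike each other. The median level of the higher list was 0.24, 0.83 and 1.64 in replicates 1, 2 and 3, against 0.16, 0.28 and 0.09 in the drought replicates. Replicate 3, labelled with 0 h of heat, was thus at the level of libraries with 48 h of heat, replicate 2 was between, and replicate 1 was in the drought range. Whether replicate 3 is labelled with its true time was not tested, and a difference before heat is uncertain to that extent. The lower list had the same order, at 0.02, -0.14 and -0.64 in combined replicates 1, 2 and 3, against 0.05, 0.21 and 0.24 in drought. Of the 411 higher genes, 148, 299 and 388 were above all 3 drought libraries of 72 h in combined replicates 1, 2 and 3. Over all genes tested those shares were 24.2%, 29.3% and 32.3%. Without combined replicate 3, the 72 h medians were 0.45 and -0.24 and 0 genes of either list were called (0.00312% and 0% of all genes). In that fit 332 of 411 and 161 of 217 genes still had the same sign. Without replicate 1 the medians were 1.06 and -0.57, with 210 and 30 called (3.20% and 1.15% of all genes). Without combined replicate 2, 102 and 3 were called (1.46% and 0.212% of all genes). Without drought replicate 1, 2 or 3 of that time, 60, 29 and 26 of the higher genes were called (0.859%, 0.262% and 0.331% of all genes) and 12, 2 and 0 of the lower genes (0.447%, 0.106% and 0.134%).

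Whether the difference grew between 72 and 120 h was tested directly, as a comparison that takes out what the combined and drought libraries labelled 72 h already differed by. The median change in the log2 difference was 0.43 for the higher and -0.59 for the lower list, and 341 of 411 and 214 of 217 genes had a larger difference at 120 h, in lists chosen at 120 h. Tested over all genes, edgeR called 0 genes, with a smallest adjusted p of 0.0695. It had 2352 genes at an unadjusted p below 0.05, where 5% of the genes tested is 1601. Limma voom called 0, and DESeq2 called 60 (33 up and 27 down). The 72 h side includes combined replicate 3, whose label could not be checked. Without it edgeR called 1 gene and had 4310 at an unadjusted p below 0.05. Leaving out any other single library of 72 or 120 h gave 1517 to 3923. Between 96 and 120 h, edgeR again called 0 genes, with 829 at an unadjusted p below 0.05, limma voom called 0 and DESeq2 called 5. A difference between the first and the second day of heat was not detectable in edgeR with 3 libraries per group.

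Genes chosen at other times were then read at 120 h, where their fold changes had not been used to choose them. Of the 1173 genes called higher at 96 h, 98.9% were positive at 120 h, with a median of 0.92 on the log2 scale, and the 675 called lower had -0.66, with 97.3% negative. The 594 called higher at 72 h had 0.95 at 120 h, with 97.1% positive, whereas the 221 called lower at 72 h had -0.37, with 76.5% negative. Genes called higher at 168 h (347) had 0.79 and genes called lower then (387) had -0.55. Over all genes tested, 51.5% were positive at 120 h, with a median of 0.02. The 72 h lists rested on combined replicate 3, whose label could not be checked. Without that library edgeR called 1 gene higher and 0 lower at 72 h. At 96 h it called 12 and 4 without combined replicate 2, and 0 and 0 without drought replicate 3. At 168 h it called 1 and 1 without combined replicate 1. The lists of those times are uncertain to that extent. The calls shared by 96 and 120 h were 21.9% of the higher list of 96 h and 62.5% of that of 120 h, and for the lower lists 11.4% and 35.5%. Of all genes tested, 1.28% were called higher and 0.678% lower at 120 h, and 3.66% and 2.11% at 96 h. Of the 411 higher genes, 119 were called at 120 h alone among the times from 72 to 168 h, 135 at 1 other time, 111 at 2, 39 at 3 and 7 at all 4. Of the 217 lower genes, 115 were called at 120 h alone, 68 at 1 other time, 28 at 2 and 6 at 3. The shares of all genes called higher at 72, 144 and 168 h were 1.86%, 0.725% and 1.08%. The shares called lower at those times were 0.69%, 0.162% and 1.21%.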

How the data were processed

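Per the labels' protocols, leaf RNA went through an Illumina kit that keeps the strand. TopHat, Cufflinks and HTSeq were used without stated versions or roles, per the submitters' processing notes. The sources used here do not state the genome build, annotation or strand setting of the counting. As deposited, the values are raw counts of reads for each gene, all whole numbers and without normalization by the authors. Groups and times came from the sample titles. Titles of 3 combined libraries read 94 h and were taken as 96 h, the time in the series design and the column names.

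The test was edgeR 4.0.16 (R 4.3.3): default expression filter (minimum count 10, minimum total 15; 32011 of 32190 genes kept), trimmed mean of M values scaling, and a quasi-likelihood fit of 18 group means to all 54 libraries. A call is an adjusted p (Benjamini-Hochberg, over all genes tested) below 0.05. For library medians and principal components, log2 CPM took a prior count of 2. Library totals ran from 19.2 to 61.6 M. Among the 6 libraries, replicate counts varied 87.5 or more times as much as sampling alone, so none was a copy. The fit was tested on simulated counts.

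The named genes are the 2 rising and 2 falling called genes with the largest fold, a mean of at least 5 CPM over the 6 libraries and no overlap between groups. The 405 genes came from the 9 libraries at 0 h (mean count of at least 20, a gap of at least 2 log2 units between libraries, 0.5 CPM added). Comparison, gene lists and alternatives were chosen with earlier results of these data known. Alternatives were DESeq2 1.42.0, its size factors, limma 3.58.1 (voom), other filters, a fold threshold, the replicate number as a block, the profile level as a covariate, fits of the 6 libraries alone and leaving out each library. The within-profile fit, the fit without second-profile libraries and, for the list medians at other times, leaving out each library were added after the data were seen.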

Additional observations from a re-analysis of the deposited data

How the results depend on the processing

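The 628 genes called at 120 h became 611 with DESeq2 size factors, 629 with no filter, 628 with the stricter filter and 527 in the mean of the within-profile differences, in which 239 of the 411 higher and 104 of the 217 lower genes were called again. DESeq2 called 1616 (953 higher and 663 lower, including 405 of the 411 and all 217) and limma voom 324, and 205 higher and 105 lower genes were called by all 3 tools. A model of only the 6 libraries called 0, also 0 with the replicate block and 0 with the profile level as covariate, with 4572, 5153 and 5464 genes at an unadjusted p below 0.05. Leaving out a library gave 0 to 909. Without the 12 second-profile and 4 intermediate libraries, which leaves 1 drought library assumed to vary like the other groups, edgeR called 1. Against a 1.5-fold threshold 2 genes passed, named here after their values were seen: Pavir.9NG573500.v4.1 (28.2, 27.4 and 46.3 CPM in combined, 2.69, 2.92 and 4.98 CPM in drought replicates) and Pavir.5NG244100.v4.1 (5.18, 5.17 and 3.10 against 0.470, 0.218 and 0.564 CPM).

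The change from 72 to 120 h gave 0 genes, 60 in DESeq2, 5 with the replicate block, and 0 to 2 when a library was left out (2 without combined 120 h replicate 2, 1 without combined 72 h replicate 3). The change from 96 to 120 h gave 0, and 5 in DESeq2. With the replicate number within treatment as a block, edgeR called 429 genes at 120 h, among them 151 of the 411 and 39 of the 217. Under that block 0 and 0 genes of the lists were called at 72 h (128 and 12 without it), 49 and 6 at 96 h (257 and 77), 7 and 0 at 144 h (27 and 11) and 3 and 0 at 168 h (90 and 42). The shares of all genes called higher and lower under the block were 0% and 0% at 72 h and 0.3% and 0.153% at 96 h. At 144 h they were 0.206% and 0.0281%, and at 168 h 0.0187% and 0.0219%. The numbers share no stated source. Deviations of same-numbered combined and drought libraries at 120 h correlated at -0.257, 0.541 and 0.489 for replicates 1, 2 and 3, so the treatments were not treated as paired. That correlation does not test whether a number marks the same plants across times within a treatment. Combined replicate 2 had the second profile at all 6 times (level 0.00438 to 0.0067) and combined replicate 3 (0.933 to 1.28) and drought replicate 3 (0.993 to 1.22) the first, while the other numbers had libraries of differing profile.

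All 4 named genes kept their direction in every alternative that gave a value. Pavir.7KG175400.v4.1 passed in 9 alternatives and not in 10, Pavir.6KG254300.v4.1 in 8 and not in 11, Pavir.5KG546100.v4.1 in 5 and not in 14 and Pavir.3KG285800.v4.1 in 5 and not in 11. Leaving out any single 120 h library ended the call of both falling genes (edgeR adjusted p 0.0609 to 0.207), with log2 fold changes of -9.91 to -8.84 and -7.97 to -6.91, and all but combined replicate 3 ended that of both rising genes (edgeR adjusted p 0.0598 to 0.174), with log2 fold changes of 3.74 to 5.21 and 3.93 to 4.19. The median of the lower list at 0 h turned to 0.0683 with the replicate block. At 22.3 to 38.9 M counts per library, replicates varied 87.5 to 136.9 times as much as sampling of counts alone. The causes of these changes in calls were not tested.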

Other observations

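The genes called at 120 h were spread over the whole genome as coded in their identifiers. Of the genes tested, 1.33% on the K subgenome and 1.28% on the N subgenome were higher in combined leaves, and 0.747% and 0.617% were lower. By chromosome the share of higher genes ran from 0.791% on 7K to 1.76% on 6K, and was 0.760% for identifiers placed on no chromosome. The share of lower genes ran from 0.239% on 8N to 1.38% on 3K, where 25 of 1811 genes tested were lower and another 25 higher. Among 12423 pairs of genes with consecutive identifier numbers, 520 held a called gene, and in 5 pairs both were higher, in 1 both were lower and in 2 they moved in opposite directions.

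A control library stood apart in the genes of this comparison. The median level of the 411 higher genes was 1.28 (log2, relative to control leaves at 0 h) in control replicate 3 at 144 h, against 0.31 and 0.28 in replicates 1 and 2, and Pavir.7KG175400.v4.1 stood there at 22.5 CPM, against 1.03 and 1.85 CPM. The level of the 217 lower genes was -0.28 in that library, against 0.11 and 0.07. Combined libraries at 0 h were between 0.42 and 0.52 in the higher list, above drought libraries at 0.20 to 0.30 and controls at -0.16 to 0.17.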
